A study of Mus musculus with 48 samples.

Results

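The 41 genes described here encode heterogeneous nuclear ribonucleoproteins (hnRNPs) and other sequence-specific regulators of splicing. They were chosen by name, with earlier results of these data known. The set holds 20 hnRNP genes of the A to U series, the poly(C)-binding genes Pcbp1 and Pcbp2, the polypyrimidine tract-binding genes Ptbp1 to Ptbp3, the Celf, muscleblind (Mbnl), quaking, Rbfox, Rbm24, Rbm38 and transformer-2 (Tra2) genes, and Elavl1, Khdrbs1, Sfpq, Nono and Tardbp. All 41 were found among the 47480 gene symbols of both deposited count tables, and all 41 passed the filter on low counts in each comparison.

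hnRNPs coat nascent transcripts and commonly block the use of nearby splice sites, while other members of the group, such as the TRA2 proteins, bind exonic enhancers and favour inclusion. Muscle differentiation is a classical setting for this control. Polypyrimidine tract-binding protein holds back muscle exons in undifferentiated cells, and RBFOX, MBNL, CELF2, RBM24 and RBM38 act on muscle transcripts as cells mature. Many of these proteins also regulate their own mRNA through exons that lead to its decay, and the gene counts used here add productive and unproductive transcripts together.

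The cells were C2C12, a mouse skeletal muscle line that grows as myoblasts and fuses into multinucleated myotubes when serum is withdrawn. Myoblasts, and cells after differentiation in horse serum (differentiated cells), were kept on flexible collagen-coated membranes and either subjected to cyclic equibiaxial stretch for 1, 3 or 6 h or left non-stretched on the same kind of plate. This gave 12 groups of 4 RNA-seq libraries, 48 in all, from a parental line with no genetic change. Replicates 7 and 8 of a stage came from one experiment and replicates 9 and 10 from another, except that the stretched differentiated cells at 1 h had replicate 4, the only library of its experiment, and no replicate 10. Because libraries of one experiment are not separate experiments, the p-values measure the spread between libraries, which may be partly technical. The question was how the mRNA level of each regulator moved with stretching, with its duration and with the stage of the cells.

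The libraries held between 48447318 and 77080730 counted fragments. Levels are given as CPM, that is, relative to the scaled total of a library, on one scale for all 48 libraries, and the members' mean levels ran from 17.6 to 834 CPM with a median of 221, against a median of 15.1 over the 17044 genes on that scale. Together the members took 1.497 to 1.64% of all counts in the myoblast libraries and 0.926 to 1.06% in those of differentiated cells. The labels of the stages were checked against marker genes: 18 of 20 muscle differentiation markers that the tables hold summed to 761 to 952 CPM in myoblasts and 21074 to 30837 CPM in differentiated cells, and 12 markers of undifferentiated and dividing cells summed to 2547 to 2965 and 462 to 1009 CPM. The highest of the latter sums in its stage was that of replicate 4 (differentiated, 1 h, stretched). In myoblasts the muscle marker sum was largely Des, which alone gave 704 to 915 CPM. The 12 markers of non-muscle cells summed to 10.4 to 19.9 CPM in myoblasts and 89.1 to 155 CPM in differentiated cells, where Dcn alone gave 68.0 to 125 CPM. Ptprc, Pecam1 and Epcam were at 0 in some libraries of each stage and reached at most 0.132 CPM. The ranges of this sum overlapped between stretched and non-stretched cells at each time and stage.

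Upstream sequences are shown for the pair of members on which the results turn most, Rbm24 for the difference between stages and Tra2a for the largest rise with stretch in differentiated cells. Both windows are the 250 bases before the RefSeq start site (GRCm38.p6, the sequence of mm10), written 5′ to 3′ on the strand of the gene, and both lie outside the annotated gene body. Capitals in the Rbm24 window (chr13:46418050-46418299, plus strand) mark CANNTG, the E-box bound by myogenic factors. In the Tra2a window (chr6:49264053-49264302, minus strand) capitals mark TGACG on either strand, the core of the cyclic AMP response element bound by the CREB and ATF factors.
Rbm24: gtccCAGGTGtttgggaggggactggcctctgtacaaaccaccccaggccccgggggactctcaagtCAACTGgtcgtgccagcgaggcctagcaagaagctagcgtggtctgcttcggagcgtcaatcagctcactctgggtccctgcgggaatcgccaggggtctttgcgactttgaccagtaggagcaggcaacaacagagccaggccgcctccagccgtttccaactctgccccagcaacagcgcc
Tra2a: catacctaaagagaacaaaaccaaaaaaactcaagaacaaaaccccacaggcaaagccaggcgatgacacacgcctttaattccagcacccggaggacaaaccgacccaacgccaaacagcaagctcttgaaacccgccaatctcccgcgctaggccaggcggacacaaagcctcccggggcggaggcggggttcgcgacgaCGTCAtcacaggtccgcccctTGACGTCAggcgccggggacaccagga
The Rbm24 window held 2 matches to CANNTG, a motif present in 66.2% of the 32851 RefSeq promoter windows of this length. The Tra2a window held 3 matches to TGACG, which occurs in 17.8% of windows, and a pair of them overlap in the palindrome TGACGTCA, found in 1.55% of windows. Of the 36 members with a RefSeq window, 18 held CANNTG, 14 held TGACG and 1, Tra2a, held TGACGTCA. A member counted if any of its windows held the motif, while the percentages are per window. CAGCTG, a form of CANNTG, and CCAAT were also searched. They occur in 13 and 33.8% of windows and were held by 1 and 20 members. The Rbm24 window held neither, and the Tra2a window held 1 CCAAT. These are matches of letters only, and binding was not measured.

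Stretching for 1 h moved no member past the adjusted p in either stage, and 3 and 6 h of stretch moved many of them by small amounts. A gene was counted as called when it passed both limits used in the study, an adjusted p under 0.05 together with a rise or fall of 0.58 or more on the log2 scale. Changes of any size at an adjusted p under 0.05 were counted beside these, with edgeR's quasi-likelihood test and Benjamini-Hochberg adjustment over all genes tested. As these are bulk samples, a change in the share of one kind of cell and a change of RNA per cell cannot be told apart. The only member past both limits was Rbm24, in myoblasts at 3 h and at 6 h. In all, 34 of 41 members passed the adjusted p in at least 1 of the 6 stretch comparisons, a count that was not made over all genes. The 7 that passed in none were Celf2, Hnrnpa0, Hnrnph3, Hnrnpul2, Mbnl1, Nono and Pcbp1. Across the 6 comparisons the median standard error of a member's log2 fold change lay between 0.026 and 0.060, so differences well under the 0.58 limit could be resolved for most of them. The shares of all genes given beside the members' counts were not matched for level. Members had a median of 221 CPM against 15.1 CPM over all genes, and smaller changes can pass at higher counts. The largest rises and falls described singly were picked among members at an adjusted p under 0.05 with groups that did not overlap. Their separation therefore adds no support of its own. The share of all genes with separate groups is not given here.

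**Figure D1:**
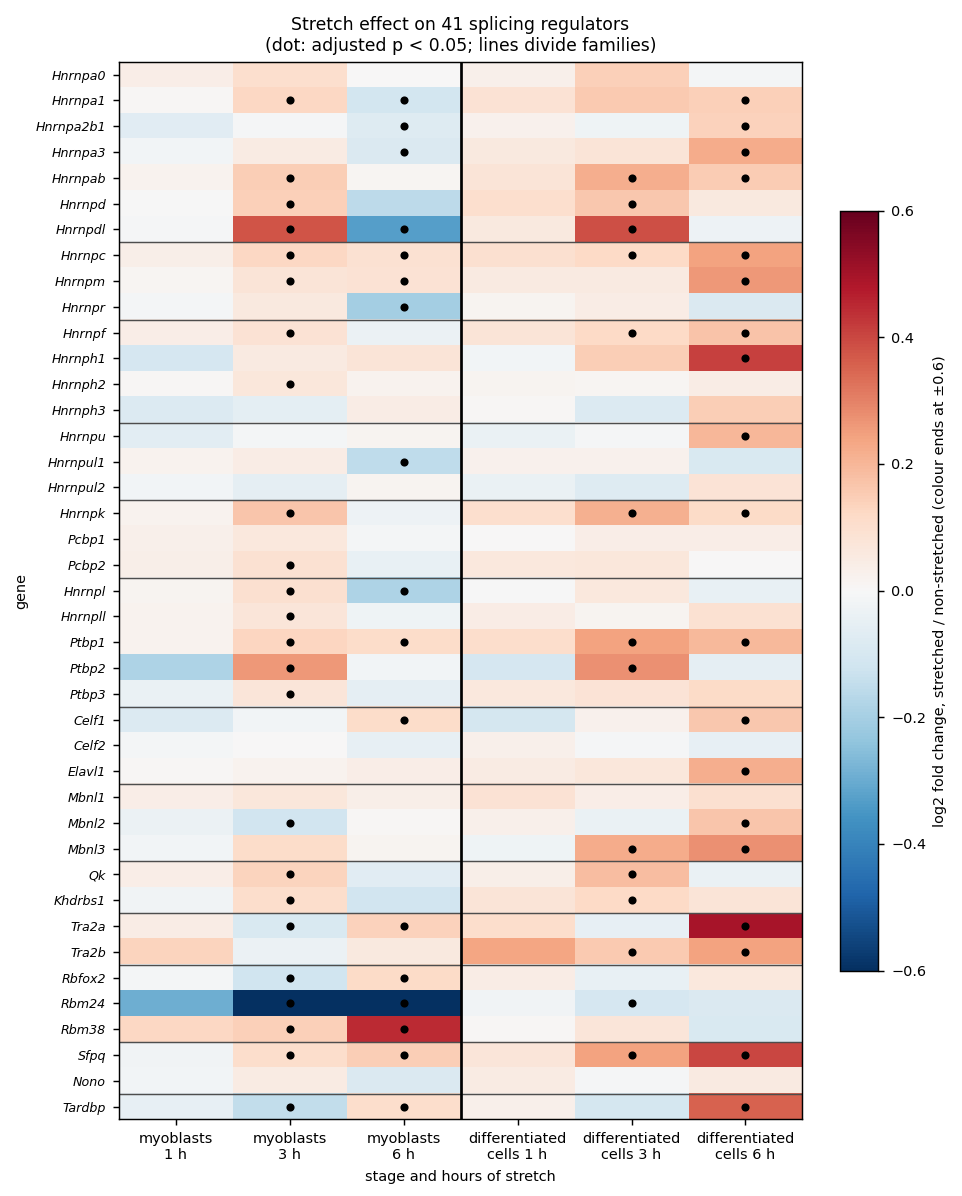
Log2 fold change of stretched over non-stretched cells for the 41 members (rows, grouped by family) in the 6 stretch comparisons (columns), with a dot where the adjusted p was under 0.05. Dots are missing from both 1 h columns, red predominates at 3 h in both stages and at 6 h in differentiated cells, and the 6 h myoblast column mixes 9 rises with 8 falls.

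After 1 h, 0 of 41 members passed the adjusted p in myoblasts, where 1.67% of all genes were higher, 4.24% were lower and 1.25% passed both limits. In differentiated cells the count was also 0, with 0.193% of all genes higher, 0.47% lower and 0.27% past both limits. At an unadjusted p under 0.05 there were 3 members in myoblasts and 2 in differentiated cells. Of all genes, 2835 of 14938 and 1386 of 15538 had such a p. DESeq2 passed 1 higher and 1 lower member in myoblasts and 0 in differentiated cells. The members' log2 fold changes ran from -0.29 (Rbm24) to 0.13 (Tra2b) in myoblasts and from -0.11 (Celf1) to 0.24 (Tra2b) in differentiated cells. Tra2b, which binds GA-rich exonic enhancers, had the highest value in both stages, with an edgeR adjusted p of 0.0657 in myoblasts and 0.307 in differentiated cells. In differentiated cells its level was 107, 108, 110 and 108 CPM in controls. Stretched replicate 4, the only library of its experiment, had 153 CPM. Stretched replicates 7, 8 and 9 had 119, 118 and 121 CPM.

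At 3 h in myoblasts 19 members rose and 5 fell, while 16% of all genes were higher, 15.8% were lower and 1.71% passed both limits. The median log2 fold change was 0.069 over the members and near 0 over all genes. Rises were spread over the families. All 5 genes of the hnRNP L and PTB group rose, as did 4 of 7 genes of the hnRNP A/B and D group, 2 of 3 in the C, M and R group, 2 of 4 in the F/H group, 2 of 3 poly(C)-binding genes and both STAR genes (Qk and Khdrbs1). The 5 that fell were Rbm24, Tardbp, Rbfox2, Mbnl2 and Tra2a. None of the 3 genes of the hnRNP U group and none of the 3 of the Celf and Elavl group passed the adjusted p. Among the markers, 6 of 12 of dividing cells were higher and 1 lower (summed level 2778 to 2933 CPM in controls and 2831 to 2965 CPM in stretched cells), and 3 of the 13 muscle markers tested were lower and 0 higher, 2 of them past both limits (869 to 952 and 882 to 906 CPM). The muscle sum here is largely that of Des. Of 5 non-muscle markers tested 1 was lower. The part of these markers in the members' values was not tested.

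Differentiated cells at 3 h had 13 members higher and 1, Rbm24, lower, against 10.8% of all genes higher, 11.4% lower and 1.63% past both limits. The median over the members was 0.066. Of the 13, 11 also rose in myoblasts at 3 h, where 19 had risen: Hnrnpab, Hnrnpc, Hnrnpd, Hnrnpdl, Hnrnpf, Hnrnpk, Khdrbs1, Ptbp1, Ptbp2, Qk and Sfpq. The other two were Mbnl3 (log2 0.22 ± 0.062 SE, edgeR adjusted p = 0.0251) and Tra2b (0.15 ± 0.039, adjusted p = 0.0181). The stages have separate control libraries, and the matching overlap over all genes was not counted. Here 4 of 12 markers of dividing cells were higher and 0 lower, with sums of 581 to 609.5 CPM in controls and 610.0 to 676 CPM in stretched cells, and 0 of 18 muscle and 0 of 6 non-muscle markers passed. Their part in the members' values was not tested.

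Hnrnpdl, a paralog of Hnrnpd, had the largest rise at 3 h in both stages. The gene lies at chr5:100033577-100039664 on the minus strand (mm10). In myoblasts its level was 229, 237, 219.9 and 218 CPM in the non-stretched libraries and 313, 286, 294 and 289 CPM in the stretched ones. Every stretched library was thus above every control, and the log2 fold change was 0.38 ± 0.032 (SE, n = 4 per group, edgeR adjusted p = 5.75e-06). In differentiated cells the 3 h controls had 139, 145, 165 and 162 CPM and the stretched libraries 203, 195, 195 and 206 CPM. Here too the groups did not overlap, and the log2 fold change was 0.39 ± 0.054 (adjusted p = 9.05e-04). Within experiments the myoblast difference was 0.36 in replicates 7 and 8 and 0.41 in replicates 9 and 10, and that of differentiated cells was 0.49 and 0.29.

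Ptbp2, the neuronal form of the polypyrimidine tract-binding protein (chr3:119718742-119784466, minus strand), followed at 3 h. Its level in myoblasts was 58.1, 58.4, 56.3 and 55.1 CPM without stretch and 71.3, 67.3, 68.5 and 67.5 CPM with stretch. The groups were separate, 0.26 ± 0.027 apart on the log2 scale (edgeR adjusted p = 1.91e-05). In differentiated cells 38.3, 38.1, 41.3 and 40.5 CPM stood against 45.5, 43.1, 52.3 and 50.4 CPM. All stretched libraries were again higher, by 0.27 ± 0.059 (adjusted p = 0.00803). Ptbp1, the form that dominates in dividing cells, rose by 0.13 ± 0.027 in myoblasts and by 0.24 ± 0.059 in differentiated cells.

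The falls at 3 h in myoblasts were smaller for the abundant genes. Tardbp encodes TDP-43, which binds UG-rich introns and represses cryptic exons, and lies at chr4:148612382-148627019 (minus strand). It had 358, 358, 350.0 and 347 CPM in controls and 316, 321, 312 and 335 CPM in stretched myoblasts. No stretched library reached the lowest control, and the log2 fold change was -0.15 ± 0.026 (edgeR adjusted p = 9.31e-04). The matching value of differentiated cells was -0.10 ± 0.039 with an adjusted p of 0.0823. Rbfox2, whose product binds UGCAUG and favours exons that lie upstream of its sites, had 309.9, 312, 303 and 306 CPM in controls and 279, 291, 282 and 288 CPM in stretched myoblasts. These groups did not overlap and differed by -0.12 ± 0.023 (adjusted p = 0.00153).

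Rbm24, an RNA-binding protein of heart and skeletal muscle that promotes inclusion of muscle exons, was barely expressed in myoblasts. At 3 h it had 0.993, 0.810, 1.44 and 1.38 CPM in controls and 0.853, 0.639, 0.621 and 0.933 CPM in stretched myoblasts, from 38 to 76 counts per library. The groups overlapped. The log2 fold change of -0.61 ± 0.21 passed both limits at an edgeR adjusted p of 0.0407, but the adjusted p lay between 0.0545 and 0.127 without any one of control replicates 9 and 10 or stretched replicates 7, 8 and 9. In differentiated cells Rbm24 was abundant, with 199, 190.3, 202 and 198 CPM in the 3 h controls and 186, 179, 183 and 189 CPM in the stretched libraries. All stretched libraries were lower, by -0.10 ± 0.030 (adjusted p = 0.0370). This call was lost in 6 of the 8 fits that left out 1 library, all but those without control replicate 8 or stretched replicate 10, with adjusted p up to 0.0875.

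**Figure D2:**
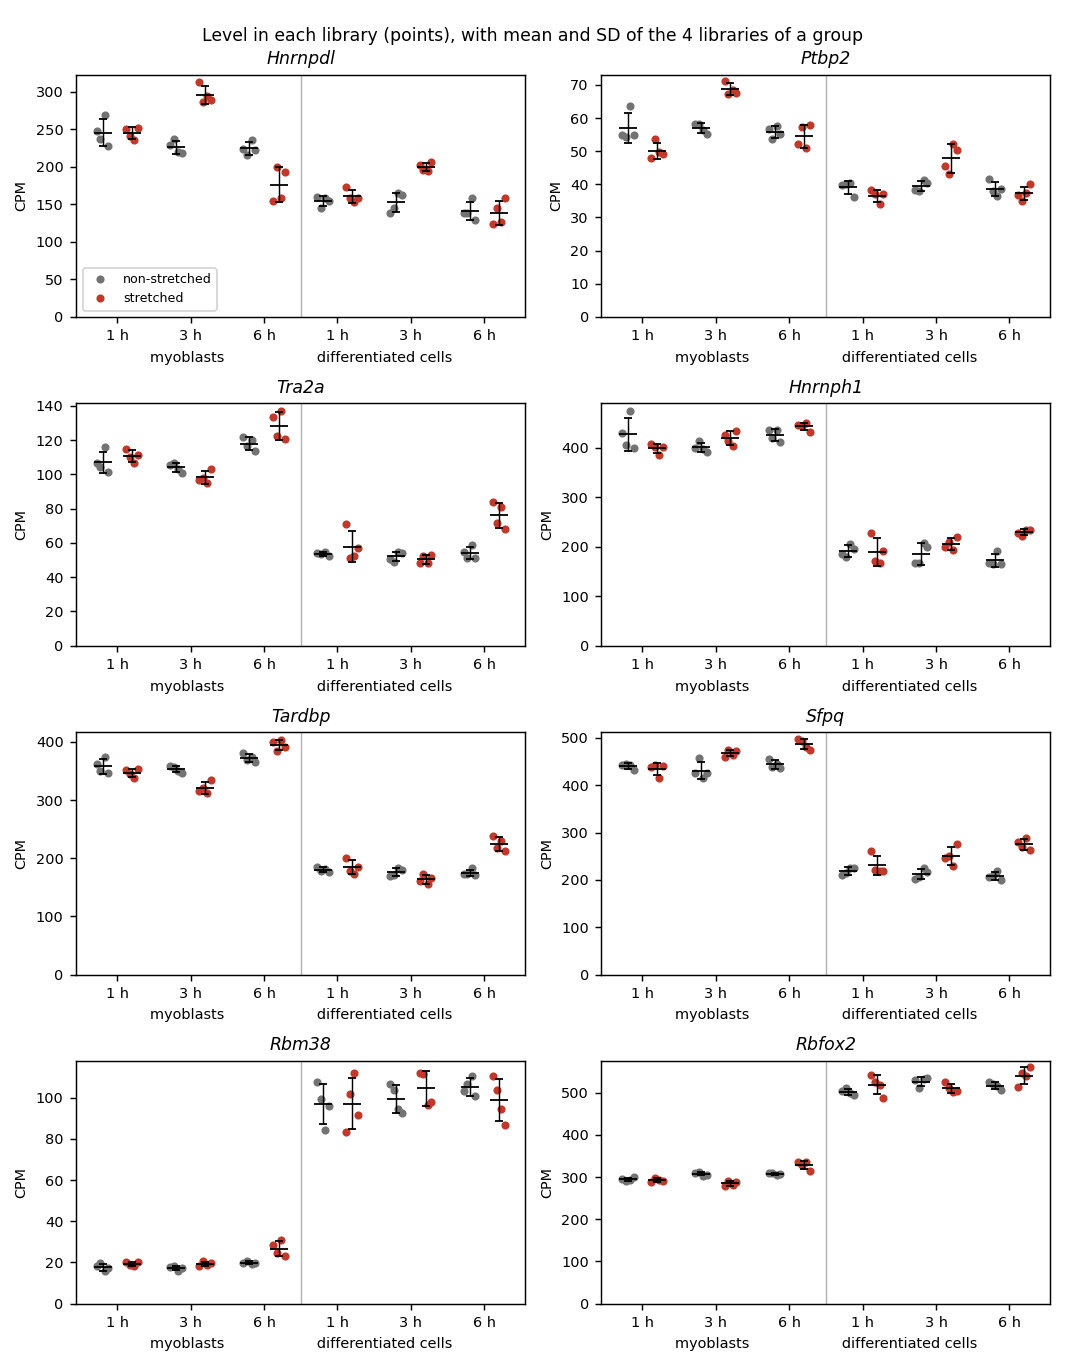
CPM of 8 members in each library (points; grey non-stretched, red stretched) at 1, 3 and 6 h in myoblasts (left of the line) and differentiated cells (right), with the mean and SD of the 4 libraries of a group. Hnrnpdl and Ptbp2 stand above their controls at 3 h in both stages, and Tra2a, Hnrnph1, Tardbp and Sfpq stand above theirs at 6 h in differentiated cells.

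At 6 h the counts in the stages differed. In myoblasts 9 members were higher and 8 lower, near the shares of all genes, of which 14.1% were higher, 13% lower and 2.17% past both limits, and the members' median was 0.003. Members of the hnRNP A/B and D group accounted for 4 of the 8 falls (Hnrnpa1, Hnrnpa2b1, Hnrnpa3 and Hnrnpdl), with Hnrnpl, Hnrnpr, Hnrnpul1 and Rbm24 as the rest. The 9 that rose were Celf1, Hnrnpc, Hnrnpm, Ptbp1, Rbfox2, Rbm38, Sfpq, Tardbp and Tra2a. Leaving out 1 library gave 4 to 9 higher and 5 to 10 lower members, with 4 higher without control replicate 8 or stretched replicate 9, and 5 lower without any one of the controls or stretched replicate 7.

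Hnrnpdl, higher at 3 h in myoblasts, was lower at 6 h. Its 6 h controls had 223, 215, 236 and 223 CPM and the stretched libraries 154, 199, 158 and 193 CPM. All stretched libraries were below all controls, and replicates 7 and 9 were the lowest. The log2 fold change was -0.33 ± 0.072 (edgeR adjusted p = 0.00634), with -0.32 and -0.39 within the experiments. Of the members that passed the adjusted p at both times in myoblasts, Hnrnpa1 and Hnrnpl also went from higher at 3 h to lower at 6 h, and Rbfox2, Tardbp and Tra2a went from lower to higher. A further 5 (Hnrnpc, Hnrnpm, Ptbp1, Rbm38 and Sfpq) were higher at both times and Rbm24 was lower at both. Such patterns were not counted over all genes.

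Rbm38, which acts on splicing and mRNA stability during myogenic differentiation (chr2:173020498-173034734, plus strand), had the largest 6 h rise in myoblasts. The controls had 19.5, 20.8, 19.3 and 19.7 CPM and the stretched libraries 28.4, 24.4, 30.8 and 23.1 CPM. Stretched replicates 7 and 9 were the highest and the groups were apart, and the rise was 0.45 ± 0.082 on the log2 scale (edgeR adjusted p = 0.00256). Sfpq, an abundant nuclear protein of paraspeckles that pairs with NONO (chr4:127021324-127037013, plus strand), had 456, 438, 446 and 437 CPM in controls and 497, 493, 482 and 474 CPM in stretched myoblasts. Its groups did not overlap, at 0.15 ± 0.028 (adjusted p = 0.00268), while its partner Nono had -0.089 ± 0.032 (adjusted p = 0.0597).

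Rbm24 remained near the lower end of detection in myoblasts at 6 h, with 0.871, 1.06, 0.778 and 0.602 CPM in controls and 0.407, 0.461, 0.574 and 0.484 CPM in stretched libraries. Every stretched library was lower, and the log2 fold change was -0.76 ± 0.20 (edgeR adjusted p = 0.0179). It rested on 26 to 60 counts per library, was -1.12 in replicates 7 and 8 and -0.37 in replicates 9 and 10, and had an adjusted p of 0.0547 without control replicate 8. The sum of the dividing-cell markers was 2764 to 2895 CPM in the 6 h controls and 2547 to 2775 CPM in the stretched myoblasts. That of the muscle markers, largely Des, was 819.7 to 862 and 761 to 813 CPM. The part of these shifts in the members' values was not tested.

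In differentiated cells at 6 h 19 members rose and 0 fell, against 11.5% of all genes higher, 10.8% lower and 2.04% past both limits. At an unadjusted p under 0.05, 24 members passed in either direction, as did 5523 of 15433 genes. DESeq2 passed 20 higher and 1 lower member. The median over the members was 0.11. The rises took in 4 of 7 genes of the A/B and D group, 2 of 3 of the C, M and R group, both transformer-2 genes, 2 of 3 muscleblind genes (Mbnl2 and Mbnl3), 2 of 3 of the Celf and Elavl group (Celf1 and Elavl1), Hnrnpf, Hnrnph1, Hnrnpu, Hnrnpk, Ptbp1, Sfpq and Tardbp. No member passed both limits. The 3 genes of the group with Rbfox2, Rbm24 and Rbm38 stayed at log2 0.06, -0.09 and -0.09, none past the adjusted p. Of the markers tested, 2 of 18 muscle markers were lower and 0 higher (median log2 fold change -0.089, sums of 24483 to 30072 CPM in controls and 22656 to 30837 CPM in stretched cells). Of 6 non-muscle markers 2 were lower, 1 of them past both limits (median -0.30, sums of 112 to 155 and 102 to 116 CPM), and of 12 markers of dividing cells 2 were higher and 2 lower. Their part in the members' rises was not tested.

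Tra2a had the largest rise among the members. It encodes an enhancer-binding partner of the SR proteins and lies at chr6:49243924-49264033 (minus strand), next to the window printed above. Controls had 54.4, 51.3, 58.6 and 51.0 CPM and stretched libraries 83.7, 71.4, 80.6 and 68.2 CPM. The groups were clearly apart, with replicates 7 and 9 highest among the stretched libraries. The log2 fold change was 0.49 ± 0.068 (edgeR adjusted p = 0.00119), and 0.55 and 0.44 within the experiments. Its paralog Tra2b rose by 0.24 ± 0.036.

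Hnrnph1, whose product binds G-rich stretches to enhance or silence exons (chr11:50376990-50386528, plus strand), was second. It had 168, 165, 192 and 164 CPM in controls and 228, 221, 235 and 234 CPM in stretched cells. No stretched library fell to the level of the highest control, replicate 9, and the log2 fold change was 0.41 ± 0.052 (edgeR adjusted p = 8.75e-04). Sfpq followed, with 206, 208, 219 and 199 CPM against 281, 270.2, 288 and 263 CPM and a log2 fold change of 0.40 ± 0.040. Tardbp had 174, 173, 183 and 171 CPM against 238, 217, 229.9 and 212 CPM, a rise of 0.35 ± 0.042. In both cases the groups were separate. Sfpq and Tardbp were singled out after their values were seen.

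Of the 9 members higher in myoblasts at 6 h, 7 were also among the 19 higher in differentiated cells: Celf1, Hnrnpc, Hnrnpm, Ptbp1, Sfpq, Tardbp and Tra2a. Another 3, Hnrnpa1, Hnrnpa2b1 and Hnrnpa3, were lower in myoblasts and higher in differentiated cells. Neither these overlaps nor those between 3 and 6 h were counted over all genes. In differentiated cells 8 members were higher at both 3 and 6 h (Hnrnpab, Hnrnpc, Hnrnpf, Hnrnpk, Mbnl3, Ptbp1, Sfpq and Tra2b), and Hnrnpdl, which passed at 3 h, did not pass at 6 h, with 139, 138, 158 and 129 CPM against 123, 145, 126 and 158 CPM (-0.03 ± 0.083).

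Whether the stretch effect itself changed between 1 and 6 h was tested with an interaction term in 1 model per stage. In myoblasts 10 members passed the adjusted p, 6 upward (Rbm38, Celf1, Hnrnph1, Sfpq, Tardbp and Rbfox2) and 4 downward (Hnrnpdl, Hnrnpl, Hnrnpr and Hnrnpul1), against 11.6 and 9.42% of all genes. The members' counts were near those shares. No member passed both limits, which 3.17% of genes did. The largest were Hnrnpdl, at -0.33 ± 0.085 (edgeR adjusted p = 0.0073), and Rbm38, at 0.33 ± 0.10 (adjusted p = 0.0277). In differentiated cells 7 passed, all upward, led by Hnrnph1 at 0.43 ± 0.12 (adjusted p = 0.0219), Tra2a at 0.39 ± 0.11 (adjusted p = 0.0262) and Sfpq at 0.32 ± 0.080 (adjusted p = 0.00995). The background was 6.73% upward and 5.13% downward, with 2.5% past both limits. This count moved with the design and the libraries used. Libraries of one experiment recur across these groups, and with experiment as a covariate, or with the replicate block, 14 members passed. It was 13 without replicate 4, the 1 h stretched library with the highest Tra2a, Hnrnph1 and Sfpq levels in its group (70.7, 228 and 262 CPM), and 1 or 2 when replicate 7, 8 or 9 was left out of all groups at 1 and 6 h.

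The difference between the stages in their stretch effect was tested in the same way at each time. At 1 h 0 members passed the adjusted p with edgeR, 0 passed an unadjusted p under 0.05 and 0 passed with DESeq2. Of all genes, 0% passed edgeR's adjusted p in either direction or both limits, while 705 of 16299 had an unadjusted p under 0.05 and DESeq2 passed 17. At 3 h it was 0 again with edgeR, where 1.13% of genes were higher and 0.658% lower in differentiated cells and 0.252% passed both limits. At an unadjusted p under 0.05 there were 2 members and 2189 of 16252 genes. DESeq2 passed 2 members and 505 genes in all. At 6 h 13 members passed, 12 with a more positive effect in differentiated cells and 1, Rbm38, with a more negative one. There were 26 members at an unadjusted p under 0.05, beside 3134 of 16254 genes. DESeq2 passed 21 members and 1336 genes in all. The background was 2.39% in the positive and 2.79% in the negative direction, and 0.64% past both limits.

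The 12 members above were Rbm24 (0.66 ± 0.17), Tra2a (0.35 ± 0.088), Hnrnph1 (0.33 ± 0.061), Hnrnpa3 (0.30 ± 0.047), Hnrnpa1, Sfpq, Tardbp, Hnrnpa2b1, Hnrnpf, Tra2b, Hnrnpu and Elavl1. Values of the last 8 ran from 0.17 to 0.25. Rbm38 stood at -0.55 ± 0.12 (edgeR adjusted p = 0.0123), since it rose in myoblasts and had -0.09 ± 0.065 in differentiated cells. Hnrnpa3 had the smallest adjusted p of these, 0.00223, and its effect was -0.09 in myoblasts and 0.22 in differentiated cells. Rbm24 alone passed both limits, and its adjusted p of 0.0368 rose above 0.05 in 9 of the 16 fits that left out 1 library.

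**Figure D3:**
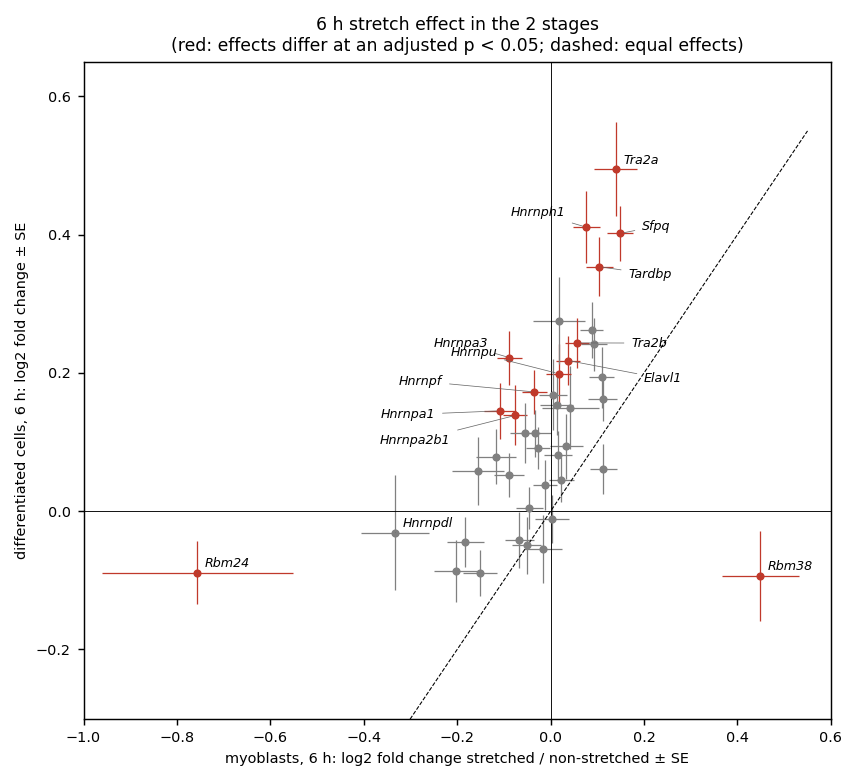
Log2 fold change with stretch at 6 h in myoblasts (x axis) and differentiated cells (y axis) for the 41 members, with SE bars and a dashed line of equal effect; red points are the 13 members whose effects differed at an adjusted p under 0.05. Of these, 12 lie above the line, among them Tra2a at 0.14 and 0.49, and Rbm38 lies far below it at 0.45 and -0.09.

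The levels of most members also differed between the stages. Non-stretched differentiated cells were compared with non-stretched myoblasts over 12 libraries each. Past both limits, 4 members were higher in differentiated cells and 25 were lower, against 26.4 and 24.1% of all genes. At any size 6 were higher and 33 lower, with 45.6 and 45% of all genes. The members' median was -0.77. The stages were grown in different experiments, so stage and experiment cannot be told apart. With counts summed per experiment the counts past both limits were again 4 and 25.

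The 4 members higher past both limits in differentiated cells were Rbm24, Rbm38, Celf2 and Rbfox2. Rbm24 (chr13:46418434-46431095, plus strand) ran from 0.602 to 1.44 CPM with a median of 0.906 over the myoblast libraries and from 190.3 to 227 CPM with a median of 202 in differentiated cells, a log2 fold change of 7.75 ± 0.070. Rbm38 went from a median of 18.2 CPM (15.7 to 20.8) to 102 CPM (84.5 to 111), or 2.43 ± 0.040. Celf2, which opposes MBNL proteins at many exons, had 152 CPM (146 to 163) and 288 CPM (267 to 317), and rose by 0.88 ± 0.027. Rbfox2 had 305 CPM (292 to 312) and 514 CPM (495 to 534), and rose by 0.74 ± 0.013. None of the 4 overlapped between the stages. The rises of Qk, which regulates many muscle exons (0.49 ± 0.022), and Hnrnph2 (0.13 ± 0.021) stayed under the 0.58 limit.

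Lower in differentiated cells were most hnRNPs. Mbnl3, a muscleblind gene whose product holds back differentiation, went from a median of 27.7 CPM (25.1 to 31.05) to 6.70 CPM (5.95 to 7.69), a log2 fold change of -2.06 ± 0.039. Ptbp1, the repressor of muscle exons named above, went from 537 CPM (499 to 546) to 143 CPM (133 to 163), or -1.89 ± 0.032. Hnrnpa1 went from 1173 CPM (1126 to 1275) to 404 CPM (388 to 467), or -1.51 ± 0.031, and Hnrnpd, which also targets AU-rich mRNA for decay, from 296 CPM (284 to 316) to 119.9 CPM (106 to 125), or -1.36 ± 0.024. The stages did not overlap for any of the 4. The other muscleblind genes, Mbnl1 and Mbnl2, had -0.20 ± 0.017 and -0.22 ± 0.024, and Celf1 and Hnrnph3 did not pass the adjusted p (-0.004 ± 0.013 and 0.006 ± 0.024).

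**Figure D4:**
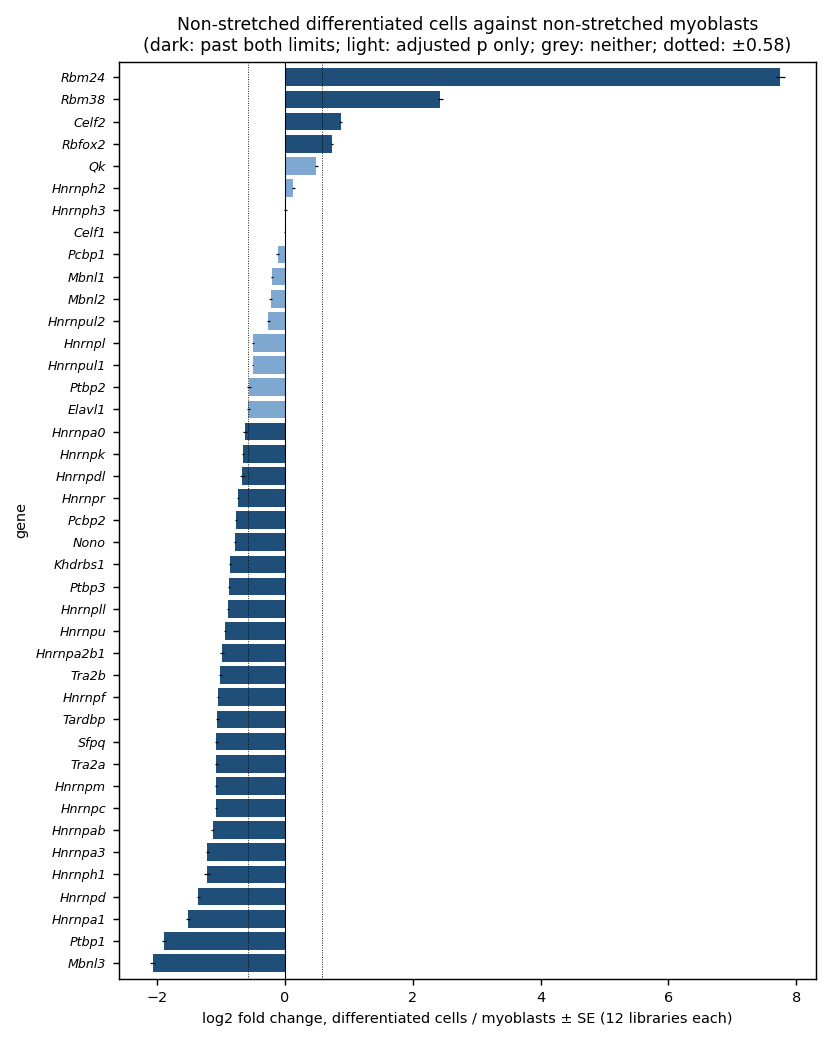
Log2 fold change of non-stretched differentiated cells over non-stretched myoblasts for each of the 41 members, with SE bars and dotted lines at the 0.58 limit. Rbm24, at 7.75, and Rbm38, at 2.43, stand apart on the right, and 25 members lie past the limit on the left.

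Other parts of the splicing machinery were counted by the same rule. Of 45 core spliceosome genes, 22 were higher and 0 lower in myoblasts at 3 h, and 4 and 4 were at 6 h. In differentiated cells the counts were 13 and 1 at 3 h and 21 and 1 at 6 h. Of 10 SR protein genes tested, 4 were higher and 1 lower in myoblasts at 3 h, and 2 and 2 were at 6 h. In differentiated cells 4 were higher and 0 lower at 3 h, and 6 and 1 were at 6 h. Past both limits, 1 SR gene was lower at 6 h in each stage. Among 37 to 40 other splicing regulators tested the counts in myoblasts were 11 and 8 at 3 h and 4 and 4 at 6 h. In differentiated cells they were 10 and 3 at 3 h and 14 and 0 at 6 h. Past both limits, 1 of these was lower in differentiated cells at 3 h. Between the stages 39 of the 45 core spliceosome genes and 10 of 10 SR genes were lower in differentiated cells. The median log2 fold change in differentiated cells at 6 h was 0.11 for the core spliceosome, 0.17 for SR genes and 0.060 for the other regulators, beside 0.11 for the members.

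**Figure D5:**
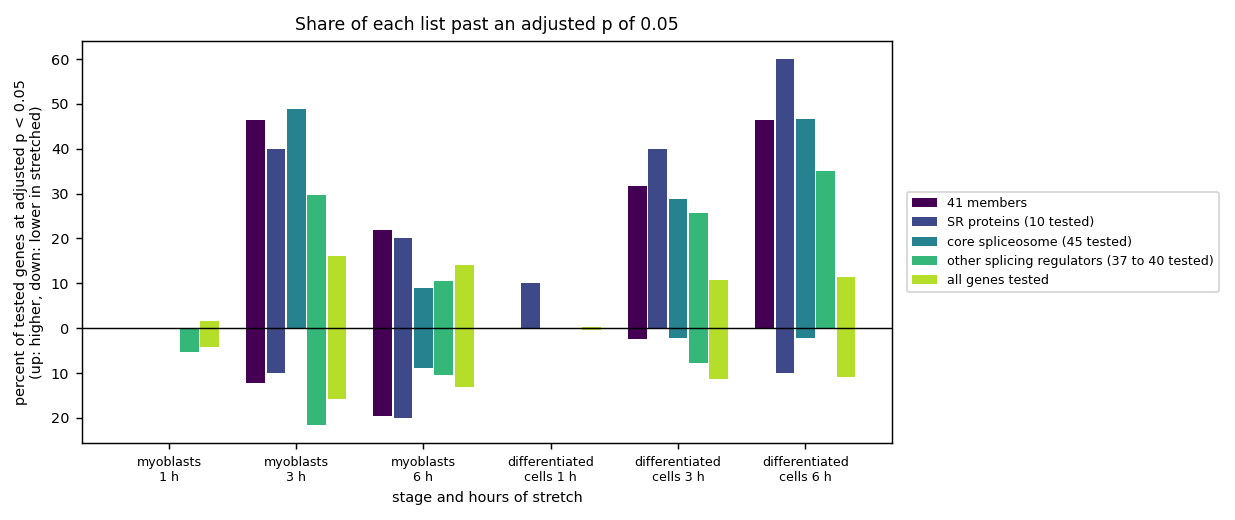
Percent of tested genes at an adjusted p under 0.05 in each stretch comparison, higher in stretched cells above the axis and lower below it, for the 41 members, SR proteins, core spliceosome, other splicing regulators and all genes. The members' bar at 6 h in differentiated cells is 19 of 41 upward and 0 downward, where all genes, not matched to the members for level, are at 11.5 and 10.8%.

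Some members share sequence with other genes, which can move reads between them. In 10 of the 41 (Hnrnpf, Hnrnpa1, Hnrnpa3, Hnrnph2, Nono, Hnrnpk, Hnrnpm, Hnrnpc, Ptbp1 and Tra2b) over 10% of the 31-base stretches of their transcripts also occur in other annotated genes, up to 38.5% in Hnrnpf, so their counts depend on how shared reads were divided. Rbm24, Rbm38 and Rbfox2 share 0%, Tra2a 0.0571%, Hnrnph1 1.2%, Tardbp 2.56% and Hnrnpdl 5.54%.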

How the data were processed

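RNA-seq libraries of stretched and non-stretched C2C12 myoblasts and differentiated cells were used. Per the paper's methods and the submitters' processing notes, the authors aligned stranded read pairs to mm10 with STAR, quantified them with Salmon and tested genes with DESeq2. The deposited counts are whole-number counts per gene symbol and library, not normalized, in 1 table per stage. All 48 columns were used. The labels call the molecule nuclear RNA, whereas the methods describe extraction from whole cells. The experiment code of stretched myoblast replicate 9 at 1 h (B231 in the labels) was read as B31. No columns were identical, and within groups each pair of libraries differed by at least 2.73 times the counting variance.

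The members, families and gene lists were chosen with earlier results of these data known. Genes were filtered with filterByExpr and scaled by TMM, and each time point's 8 libraries were tested in edgeR 4.0.16 (R 4.3.3) by quasi-likelihood, adjusted by Benjamini-Hochberg over all genes tested. Interaction terms used all libraries of a stage, or the 16 of a time point, and SE was the log2 fold change divided by the root of F. CPM used TMM-scaled sizes over all 48 libraries. DESeq2 1.42.0, the tool of the study, was an alternative, as were RLE scaling, no filter, all 24 libraries of a stage, experiment as a covariate, the replicate block and leaving out libraries. Replicate numbers were not used as pairs in the main fits. Over the 17044 genes on the CPM scale, the correlation of deviations between same-numbered libraries was -0.0697 to 0.101, over 0.1 in 1 of 23 pairs. A value over all genes does not describe single members. In the 3 h differentiated controls Hnrnpa1 had 388 and 409 CPM in replicates 7 and 8, and 461 and 463 CPM in replicates 9 and 10. Scripts were tested on simulated data. The named members were those past both limits, the 2 largest rises and falls per comparison among members at an adjusted p under 0.05 with groups that did not overlap, and the 4 largest rises and falls between stages. Genes were placed with GENCODE vM21 (mm10), and 31-base stretches compared with its transcripts. Promoters are from RefSeq (GRCm38.p6), which had 36 of 41 members. At a depth of 48447318 to 77080730 counts per library, counting error was largest for Rbm24 in myoblasts. Mbnl3 in differentiated cells, with 338 to 573 counts, came next.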

Additional observations from a re-analysis of the deposited data

Results flagged for a closer look

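A library stood apart from the other 3 of its group in 4 of 108 groups checked (9 named members in 12 groups, by Dixon's test at the 95% level), and chance alone gives about 1 in 20. Sfpq was at 262 CPM in replicate 4 (differentiated, 1 h, stretched), while the others had 219.9 to 220.2 CPM. Ptbp2 was at 63.6 CPM in control replicate 9 of the myoblasts at 1 h (others 54.4 to 54.9) and at 36.3 CPM in control replicate 10 of the differentiated cells at 1 h (others 39.8 to 40.4). Hnrnph1 was at 192 CPM in control replicate 9 of the differentiated cells at 6 h (others 164 to 168).

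The stretch effect differed between 6 h and 1 h, by the interaction test, in 10 members of the myoblasts. These were 6 upward and 4 downward, near the shares of all genes, 11.6 and 9.42%. The log2 differences were -0.33 for Hnrnpdl, -0.20 for Hnrnpl, -0.19 for Hnrnpr, -0.17 for Hnrnpul1, 0.12 for Rbfox2, 0.15 for Tardbp, 0.17 for Sfpq, 0.17 for Hnrnph1, 0.19 for Celf1 and 0.33 for Rbm38. In differentiated cells the 7 differences were 0.21 for Hnrnpm, 0.24 for Hnrnpu, 0.27 for Celf1, 0.32 for Tardbp, 0.32 for Sfpq, 0.39 for Tra2a and 0.43 for Hnrnph1. Of all genes there, 6.73% passed upward and 5.13% downward.

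Between the stages at 6 h the effect differed by -0.55 for Rbm38, and by 0.17 for Elavl1, 0.17 for Hnrnpu, 0.18 for Tra2b, 0.20 for Hnrnpf, 0.21 for Hnrnpa2b1, 0.24 for Tardbp, 0.25 for Sfpq, 0.25 for Hnrnpa1, 0.30 for Hnrnpa3, 0.33 for Hnrnph1, 0.35 for Tra2a and 0.66 for Rbm24. Of all genes, 2.39% passed in the positive and 2.79% in the negative direction.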

How the results depend on the processing

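No result reversed its direction under any alternative run. Of 144 recomputed counts, 128 stayed within 1.5 times the reported value, and of 193 values of single members 191 kept their side of the threshold; the 2 that lost it were Rbm24 in differentiated cells at 3 h without a filter and with all 24 libraries of the stage, which also took the count of lower members there from 1 to 0. At 1 h in myoblasts DESeq2 gave 1 higher and 1 lower member, no filter 1 lower, and all 24 libraries 1 higher and 2 lower, where 0 were reported. At 1 h in differentiated cells all 24 libraries and the experiment covariate each gave 1 higher. At 6 h in differentiated cells DESeq2 and all 24 libraries each gave 1 lower, where 0 were reported. DESeq2 gave 2 members whose effect differed between the stages at 3 h and 21 at 6 h, against 0 and 13. The experiment covariate gave 14 members, against 7, whose effect differed between 6 h and 1 h in differentiated cells. With the replicate block this count was also 14, the lower members in myoblasts at 6 h numbered 5 in place of 8, and no other count moved by over 1.5 times; a library's own number was its best match in 7 of 23 checks. The cause of these shifts was not tested.

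Of 395 values of single members recomputed with libraries left out, 326 kept their side of the threshold and 69 lost it. Of 258 counts, 216 stayed within 1.5 times the reported value and 42 did not. Leaving out 1 library gave these ranges. Members past both limits ranged from 0 to 1 in myoblasts at 3 h (0 without control replicate 9 or 10, or stretched replicate 7, 8 or 9) and at 6 h (0 without control replicate 8). Higher and lower members at an adjusted p under 0.05 ranged from 0 to 1 and 0 to 1 in myoblasts at 1 h, 3 to 5 lower at 3 h (3 without stretched replicate 7, 8 or 9), and 4 to 9 higher and 5 to 10 lower at 6 h. In differentiated cells at 3 h 0 to 2 were lower. For the effect that differed between 6 h and 1 h, each replicate number was left out of all groups at both times, which gave 4 to 12 members in myoblasts (4 without replicate 7) and 1 to 13 in differentiated cells (1 without replicate 7); of these only replicate 4 was a single library. With 1 library left out again, members differing between the stages at 3 h numbered 0 to 1, also past both limits, and at 6 h 9 to 16, with 0 to 2 past both limits. Counts were lowest for Rbm24 in myoblasts, with 26 to 76 per library, and next lowest for Mbnl3 in differentiated cells, with 338 to 573.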

Other observations

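Among the stretched libraries at 6 h, replicates 7 and 9 lay farther from the controls than replicates 8 and 10 for several members in both stages. In myoblasts Hnrnpdl had 154 and 158 CPM in replicates 7 and 9 and 199 and 193 CPM in replicates 8 and 10, and Rbm38 had 28.4 and 30.8 against 24.4 and 23.1 CPM. In differentiated cells Tra2a had 83.7 and 80.6 against 71.4 and 68.2 CPM, and Tardbp 238 and 229.9 against 217 and 212 CPM. Hnrnpdl in differentiated cells at 6 h, which did not pass the adjusted p over all 4 libraries, had 123 and 126 CPM in replicates 7 and 9 and 145 and 158 CPM in replicates 8 and 10. Other risers went the other way. In differentiated cells Hnrnpa1 had 420 and 438 CPM in replicates 7 and 9 against 447 and 474 CPM, and Hnrnpk 594 and 603 against 609 and 634 CPM. In myoblasts Ptbp1 had 555 and 560 against 596 and 567 CPM. How many members went each way was not counted. The labels do not say what these replicate numbers share across experiments, and the pattern was chosen after the values were seen and was not tested.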
